A study of Homo sapiens with 12 samples.

Results

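The genes described here are 6 mucin genes, MUC5AC, MUC5B, MUC1, MUC13, MUC16 and MUC20, and AGR2, 7 genes in all, measured in 12 RNA-seq libraries of A549 cells. They were read by symbol from the merged gene count table, where each has 1 entry among 40605, and each entry equals the count in the library's own file in 12 of 12 libraries. These genes were chosen by their CPM in these same libraries, known from earlier results, so their levels are given as a description, and the tests below are those of the titled groups, fitted across all genes. Of the 7, 5 passed the filter on low counts and were tested among 13838 genes. MUC16, with 29 counts over all libraries, and MUC20, with 32, were not.

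Mucins are large glycoproteins whose repeated serine- and threonine-rich stretches carry dense O-linked sugar chains. The gel-forming mucins MUC5AC and MUC5B are secreted by goblet and gland cells of the airway, and their polymers make up most of the mucus gel. MUC1, MUC13, MUC16 and MUC20 are anchored in the membrane of epithelial cells, where their outer part forms a barrier and their short inner tail can take part in signalling. AGR2 is a protein disulfide isomerase of the endoplasmic reticulum that secretory cells need to fold mucins, and it is abundant in many adenocarcinomas. A549 is a human lung adenocarcinoma line that has long been used to study mucin genes of the airway.

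By their titles the libraries form 4 groups of 3, namely Y273F doxycycline, Y273F control, WT doxycycline and WT control. All of them, controls included, are A549 cells with a tetracycline-inducible DYRK1B gene, either the wild-type kinase (WT) or Y273F, in which phenylalanine takes the place of a tyrosine in the activation loop. The doxycycline groups were grown for 7 days with 2 µg/ml doxycycline, and the control groups did not. No cells without a transgene are among the libraries analysed here, so an effect of doxycycline and an effect of DYRK1B cannot be told apart, and whether each line is a clone or a pool was not stated. The numbers used below are the library numbers of the submitters: 10, 11 and 12 are Y273F doxycycline 1, 2 and 3, 7, 8 and 9 are Y273F control 1, 2 and 3, 4, 5 and 6 are WT doxycycline 1, 2 and 3, and 1, 2 and 3 are WT control 1, 2 and 3. Levels are given in CPM, the counts of a gene scaled to the total of its library with a TMM factor.

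The titles did not separate the libraries by the gene that was to be induced. DYRK1B was read at 4.58, 4.82 and 19.7 CPM in the libraries titled Y273F doxycycline, at 2.61, 12.4 and 3.19 CPM in those titled Y273F control, at 28.1, 4.00 and 7.74 CPM in those titled WT doxycycline and at 5.71, 3.12 and 5.53 CPM in those titled WT control. The 3 highest values are those of libraries 4, 8 and 12, of which library 8 is titled a control. The titled groups may therefore not be the treatments that they name, which was not tested, and every comparison below is between groups of titles. Reads came from the 3' ends of transcripts, and which 3' end the construct carries was not stated. On the first principal component, which took up 66.3% of the variance in a set of 500 genes with the widest variation, libraries 2, 6 and 10 lay at 42.7 to 46.9 and the other 9 at -4.74 or lower. These 3 are titled WT control 2, WT doxycycline 3 and Y273F doxycycline 1. The libraries are therefore also described in the sets 2/6/10, 1/5/9, 3/7/11 and 4/8/12. These sets come from the library numbers and were chosen with the values known, each mixes 3 titled groups, and nothing was tested between them. Totals ranged from 2815673 to 22319921 counts per library, so that 3 counts, taken as the limit that a count of 0 allows, correspond to 0.133 to 1.06 CPM. Of the epithelial genes by which A549 was checked, KRT18 was read at 2262 to 8473 CPM and AKR1B10 at 2199 to 4251 CPM, while EPCAM was at 4.58 to 31.9 CPM.

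AGR2 (ENSG00000106541) lies on chromosome 7 from 16791811 to 16804999 (RefSeq, GRCh38.p14), MUC1 (ENSG00000185499) on chromosome 1 from 155185824 to 155192915, and MUC13 (ENSG00000173702) on chromosome 3 from 124905442 to 124934751. Of the 7 genes, 4 had an entry in the RefSeq promoter table, each running from 250 bases before to 50 bases after the annotated start. The promoters of AGR2, MUC1 and MUC13 are shown because these 3 tested genes each had a different order of levels over the library sets. AGR2 is chr7:16804950-16805249 on the minus strand, MUC1 is chr1:155192866-155193165 on the minus strand and MUC13 is chr3:124934702-124935001 on the minus strand, each written in the direction of transcription, with motif matches in capitals.
AGR2: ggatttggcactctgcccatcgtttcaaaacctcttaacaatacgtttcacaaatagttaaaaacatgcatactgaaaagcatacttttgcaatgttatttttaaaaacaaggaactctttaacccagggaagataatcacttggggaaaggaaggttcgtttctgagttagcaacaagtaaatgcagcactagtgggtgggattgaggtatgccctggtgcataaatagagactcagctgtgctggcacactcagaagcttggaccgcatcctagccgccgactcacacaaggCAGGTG
MUC1: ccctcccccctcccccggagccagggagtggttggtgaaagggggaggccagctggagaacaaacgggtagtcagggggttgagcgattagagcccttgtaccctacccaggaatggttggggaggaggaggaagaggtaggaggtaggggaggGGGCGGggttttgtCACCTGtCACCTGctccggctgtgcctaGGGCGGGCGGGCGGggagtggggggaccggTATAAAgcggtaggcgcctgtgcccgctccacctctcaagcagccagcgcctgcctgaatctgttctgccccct
MUC13: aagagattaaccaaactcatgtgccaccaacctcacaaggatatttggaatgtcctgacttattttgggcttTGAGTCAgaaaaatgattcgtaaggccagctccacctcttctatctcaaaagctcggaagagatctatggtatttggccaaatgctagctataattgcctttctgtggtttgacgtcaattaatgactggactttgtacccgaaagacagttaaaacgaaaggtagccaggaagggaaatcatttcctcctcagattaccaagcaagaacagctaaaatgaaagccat

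The letters searched, on both strands, were TATAAA for the TATA box, GGGCGG for the GC box, CACCTG for an E-box, GTAAACA for one form of the forkhead motif, GTAAATA for another form, ACGTG for the core of the hypoxia response element and TGANTCA for AP-1. The AGR2 promoter held 1 match, CACCTG on the opposite strand 44 bases after the start. The MUC1 promoter held TATAAA 24 bases before the start, 4 matches to GGGCGG, of which 3 overlap each other, and 2 to CACCTG. The MUC13 promoter held 1 match to TGANTCA, 178 bases before the start. Over the 35116 promoters of the table, TATAAA was present in 11.5%, GGGCGG in 45.0%, CACCTG in 20.6%, GTAAACA in 3.42%, GTAAATA in 2.67%, ACGTG in 21.4% and TGANTCA in 7.71%. A match is a description of the letters only, and a missing match says only that these letters are not in this window.

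MUC5AC (ENSG00000215182, chromosome 11, 1157953 to 1201138), the gel-forming mucin that is typical of surface goblet cells, was read at 2.46, 43.2 and 26.5 CPM in the libraries titled Y273F doxycycline 1, 2 and 3, against 28.2, 21.6 and 92.0 CPM in those titled Y273F control 1, 2 and 3. In the libraries titled WT doxycycline 1, 2 and 3 it was at 25.9, 84.3 and 1.24 CPM, against 75.0, 0.223 and 28.0 CPM in those titled WT control 1, 2 and 3. Each of 3 titled groups thus holds 1 library that is almost without MUC5AC reads beside libraries far above it, and the titled groups overlap in every comparison. By library set, MUC5AC had 1, 9 and 7 counts in libraries 2, 6 and 10, or 0.223 to 2.46 CPM, against 21.6 to 92.0 CPM in the other 9. Among those 9 it was at 75.0 to 92.0 CPM in set 1/5/9, 28.0 to 43.2 CPM in 3/7/11 and 21.6 to 26.5 CPM in 4/8/12, with no overlap between any of the sets. The exact Poisson 95% intervals, which cover counting error only, reach at most 5.08 CPM in set 2/6/10 and start at 16.7 CPM or higher in the others.

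MUC5B (ENSG00000117983, chromosome 11, 1223066 to 1262172), the gel-forming mucin of gland and club-type secretory cells, starts 21927 bases beyond the end of MUC5AC and runs the same way over the sets. It was at 0, 12.1 and 4.93 CPM in the libraries titled Y273F doxycycline, against 5.46, 4.58 and 17.4 CPM in those titled Y273F control. In the libraries titled WT doxycycline it was at 3.42, 18.4 and 0.138 CPM, against 22.1, 0 and 6.86 CPM in those titled WT control. The libraries at or next to 0 are again 2, 6 and 10, with 0, 1 and 0 counts, where 0 counts allow up to 0.669 CPM in library 2 and 1.06 CPM in library 10. The other sets did not overlap, at 17.4 to 22.1 CPM in 1/5/9, 5.46 to 12.1 CPM in 3/7/11 and 3.42 to 4.93 CPM in 4/8/12. On the log2 CPM scale, centred on each gene's mean, MUC5AC and MUC5B differed by a root mean square of 0.59 over the 12 libraries.

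AGR2, the folding enzyme, followed the same order over a narrower range and at levels far above the floor in every library. It was at 334, 1073 and 831 CPM in the libraries titled Y273F doxycycline, against 944, 837 and 1890 CPM in those titled Y273F control, and at 642, 1742 and 394 CPM in those titled WT doxycycline, against 1737, 292 and 758 CPM in those titled WT control. Libraries 2, 6 and 10 were lowest, at 292 to 394 CPM, against 642 to 1890 CPM in the other 9. Set 1/5/9 was highest, at 1737 to 1890 CPM, while sets 3/7/11, at 758 to 1073 CPM, and 4/8/12, at 642 to 837 CPM, overlapped. Since these are bulk libraries, fewer cells that make a transcript and less of it per cell cannot be told apart.

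MUC1, a membrane mucin of most simple epithelia, ran over the sets in a different order. It was at 5.98, 11.6 and 4.82 CPM in the libraries titled Y273F doxycycline, against 10.4, 3.60 and 13.8 CPM in those titled Y273F control, and at 4.42, 16.8 and 5.39 CPM in those titled WT doxycycline, against 14.3, 9.15 and 12.4 CPM in those titled WT control. The sets did not overlap, but the lowest was 4/8/12, at 3.60 to 4.82 CPM, below 2/6/10, at 5.39 to 9.15 CPM, with 3/7/11 at 10.4 to 12.4 CPM and 1/5/9 at 13.8 to 16.8 CPM. The gaps between neighbouring sets are smaller than the ranges within them. MUC1 had as few as 11 counts in library 8, where the exact 95% interval of its counts covers 1.80 to 6.44 CPM.

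MUC13, a membrane mucin best known from the intestinal and gastric epithelium, did not separate the sets. It was at 7.04, 18.1 and 12.6 CPM in the libraries titled Y273F doxycycline, against 17.4, 12.4 and 17.0 CPM in those titled Y273F control, and at 5.56, 14.6 and 8.15 CPM in those titled WT doxycycline, against 19.0, 8.48 and 5.42 CPM in those titled WT control. The 2 lowest libraries were 3 and 4, titled WT control 3 and WT doxycycline 1, at 5.42 and 5.56 CPM, below libraries 2, 6 and 10 at 7.04 to 8.48 CPM. Libraries 3 and 4 are the only WT-titled libraries of sets 3/7/11 and 4/8/12. The Y273F-titled libraries of these sets stood at 17.4 to 18.1 CPM in 3/7/11 and 12.4 to 12.6 CPM in 4/8/12. The other sets did not show this. In 1/5/9 the Y273F-titled library, at 17.0 CPM, lay between the WT-titled ones, at 14.6 and 19.0 CPM. In 2/6/10 it was lowest, at 7.04 CPM, against 8.15 and 8.48 CPM.

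MUC16 (ENSG00000181143, chromosome 19, 8848844 to 9065751), the large membrane mucin whose shed part is the serum marker CA125, was at most 1.16 CPM, in library 11. It had 0 counts in libraries 2, 5, 6 and 10 and 1 to 6 counts in the other 8. MUC20 (ENSG00000176945, chromosome 3, 195720978 to 195733551), a membrane mucin that binds the receptor tyrosine kinase MET, was at most 0.672 CPM, with 0 to 14 counts per library. A related pseudogene, MUC20P1, can share its reads, so this level is uncertain. Neither gene can be compared between groups or sets at this depth.

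**Figure D1:**
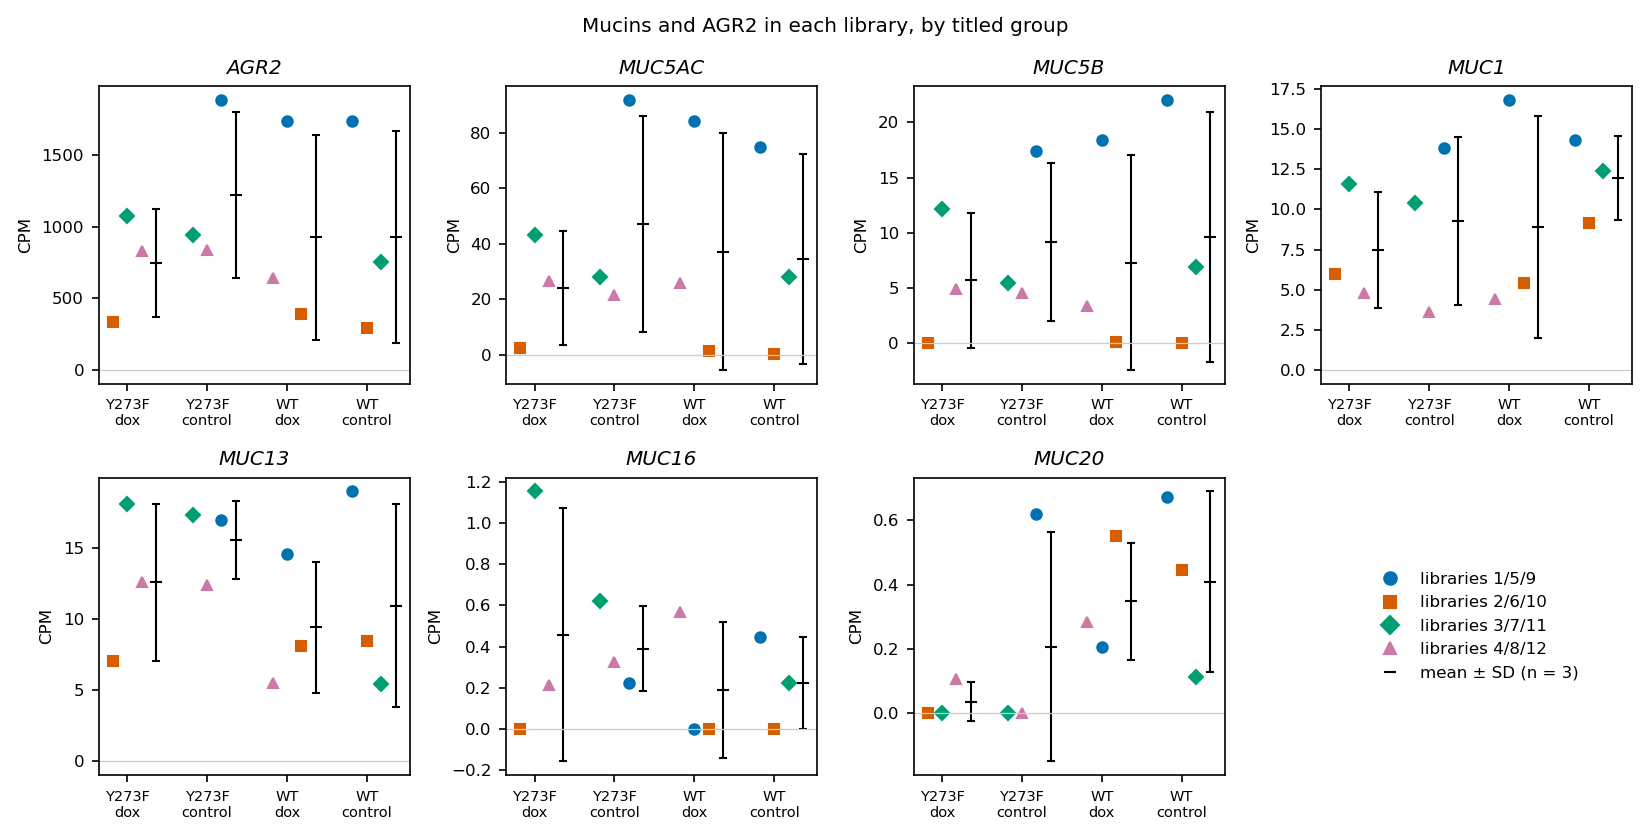
CPM of AGR2 and the 6 mucins (vertical axis, linear, a separate range for each gene) in every library, by titled group (horizontal axis), with the library set given by colour and shape and the mean ± SD of each group of 3 as a black bar. In MUC5AC, MUC5B and AGR2 the circles (libraries 1/5/9) lie at the top and the squares (libraries 2/6/10) at the bottom of whichever titled group holds them.

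Beside all genes tested, the division by library set was as follows. All of libraries 2, 6 and 10 lay below all of the other 9 in 3 of the 5 tested genes, MUC5AC, MUC5B and AGR2, and in 15.6% of all genes. They lay above all of the other 9 in none of the 5, and in 18.5% of all genes. All of libraries 1, 5 and 9 lay above the other 9 in 4 of the 5, all but MUC13, and in 2.95% of all genes, and no 2 of the 4 sets overlapped in 3 of the 5, MUC5AC, MUC5B and MUC1, and in 1.5% of all genes. The genes were picked for such levels, and these shares, like the ratios and ranks that follow, show only what was picked. The lowest of the other 9 libraries was 8.76 times the highest of libraries 2, 6 and 10 for MUC5AC, which is rank 1 of 13838 genes. Here each of libraries 2, 6 and 10 was counted as at least 3 counts. The same ratio was 3.24 for MUC5B, rank 22, and 1.63 for AGR2, rank 230, and it was 2 or more in 0.73% of all genes. For MUC5B the divisor was the floor of library 10, 1.06 CPM, and not a measured level.

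The share of the variance of log2 CPM that lay between titled groups was 9.40% for MUC5AC, 7.65% for MUC5B, 11.7% for AGR2, 16.4% for MUC1 and 24.1% for MUC13, beside a median of 17.7% over all genes tested. Between library sets the share was 94.5% for MUC5AC, 98.2% for MUC5B, 96.4% for AGR2 and 92.3% for MUC1, but 40.1% for MUC13, beside a median of 58.5%. The sets were drawn with these values in view, so the second series of shares is a description of the division and no test of it.

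**Figure D2:**
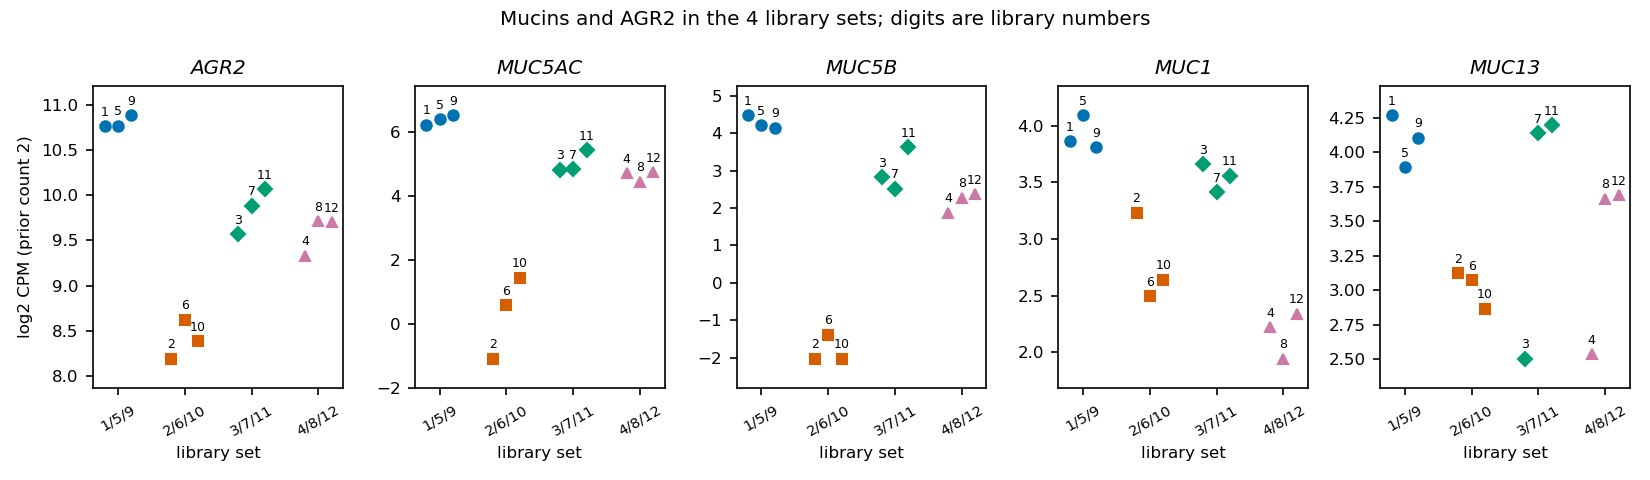
Log2 CPM with a prior count of 2 (vertical axis, a separate range for each gene) of the 5 tested genes in the 4 library sets (horizontal axis), 1 point per library with its number. MUC5AC and MUC5B lie lowest in set 2/6/10 and highest in 1/5/9 without overlap, MUC1 lies lowest in 4/8/12, and MUC13 has libraries 3 and 4 apart from the rest of their sets.

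In the comparison of the libraries titled Y273F doxycycline with those titled Y273F control, none of the 5 tested genes passed the test, and no gene did (0% of 13838, edgeR quasi-likelihood test, Benjamini-Hochberg adjusted p under 0.05). MUC5AC averaged 24.0 ± 20.5 CPM in Y273F doxycycline and 47.3 ± 38.9 CPM in Y273F control (SD, n = 3 each), with a log2 fold change of -0.96 ± 1.32 (SE) and a 95% interval from -3.85 to 1.93. AGR2 averaged 746 ± 377 CPM in Y273F doxycycline and 1224 ± 579 CPM in Y273F control (SD, n = 3 each), with a log2 fold change of -0.71 ± 0.68 and an interval from -2.21 to 0.78. The log2 fold changes were -0.68 ± 1.38 for MUC5B, -0.38 ± 0.57 for MUC1 and -0.30 ± 0.48 for MUC13, and the adjusted p of edgeR's quasi-likelihood test was 0.992 for each of the 5. All 5 values are below 0, the titled groups overlapped in each, and in 10.9% of all genes they did not. Y273F doxycycline holds library 10 of set 2/6/10 and no library of set 1/5/9. Y273F control holds library 9 of set 1/5/9 and no library of set 2/6/10. The part of this in the 5 values was not tested. At an unadjusted p under 0.05, 225 genes passed with edgeR and 232 with the DESeq2 Wald test, which also called 0.

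Between the libraries titled WT doxycycline and those titled WT control the log2 fold change was smaller than its standard error in all 5 genes, and again no gene passed (0%). AGR2 averaged 926 ± 717 CPM in WT doxycycline and 929 ± 738 CPM in WT control (SD, n = 3 each), which is a log2 fold change of -0.00 ± 0.68 (SE) with an interval from -1.50 to 1.49. MUC5AC averaged 37.2 ± 42.6 CPM in WT doxycycline and 34.4 ± 37.8 CPM in WT control (SD, n = 3 each), which gives a log2 fold change of 0.10 ± 1.29 with an interval from -2.74 to 2.93. MUC5B stood at -0.41 ± 1.34, MUC1 at -0.42 ± 0.55 and MUC13 at -0.22 ± 0.48 on the same scale, with an adjusted p of 1.00 for each in edgeR's quasi-likelihood test. These intervals include changes of several-fold either way, so the values do not show that the genes were unaffected. The groups overlapped in all 5 and were apart in 3.27% of all genes. At an unadjusted p under 0.05, 134 genes passed with edgeR and 116 with DESeq2, which called 0.

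The difference between the 2 doxycycline effects by title (Y273F minus WT) was -1.06 ± 1.84 for MUC5AC, -0.27 ± 1.92 for MUC5B, -0.71 ± 0.96 for AGR2, 0.04 ± 0.80 for MUC1 and -0.08 ± 0.68 for MUC13 on the log2 scale (± SE). No gene passed (0%), and the adjusted p was 1.00 for each of the 5 in edgeR's quasi-likelihood test. For MUC5AC the 95% interval ran from -5.10 to 2.98. At an unadjusted p under 0.05, 165 genes passed with edgeR and 144 with DESeq2, which called 0.

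Between the libraries titled as controls of the 2 lines, MUC13 averaged 15.6 ± 2.74 CPM in Y273F control and 11.0 ± 7.14 CPM in WT control (SD, n = 3 each), with a log2 fold change of 0.51 ± 0.48 (SE). The log2 fold changes were 0.46 ± 1.29 for MUC5AC, 0.40 ± 0.68 for AGR2, -0.05 ± 1.33 for MUC5B and -0.31 ± 0.55 for MUC1. The adjusted p of edgeR's quasi-likelihood test was 0.994 to 0.998, no gene passed (0%), and the groups overlapped in all 5 genes while 10.8% of all genes had them apart. At an unadjusted p under 0.05, 460 genes passed with edgeR and 481 with DESeq2, which called 0. The comparisons share control libraries, since each control group also enters its own line's doxycycline comparison and the difference. Libraries 2, 6 and 10 enter the WT control, WT doxycycline and Y273F doxycycline groups once each, and Y273F control not at all. Likewise set 1/5/9 is missing from Y273F doxycycline, 3/7/11 from WT doxycycline and 4/8/12 from WT control.

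With a term for the library set in the fit, the log2 fold change in the Y273F line became 0.40 for MUC5AC, 0.81 for MUC5B, 0.034 for AGR2, 0.17 for MUC1 and 0.13 for MUC13. All 5 thus turned from below to above 0, and none passed the test. The standard error of MUC5AC was then 0.15 to 0.24 in the 4 comparisons, against 1.29 to 1.84 without the term, but the sets were drawn with the values of these genes known, so the smaller error comes with that choice and supports nothing. Without libraries 2, 6 and 10 the values in the Y273F line were -0.53 for MUC5AC, -0.30 for MUC5B, -0.36 for AGR2, -0.36 for MUC1 and -0.065 for MUC13, again with no call. The lowest adjusted p of any of the 5 genes in any comparison under any alternative was 0.358.

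**Figure D3:**
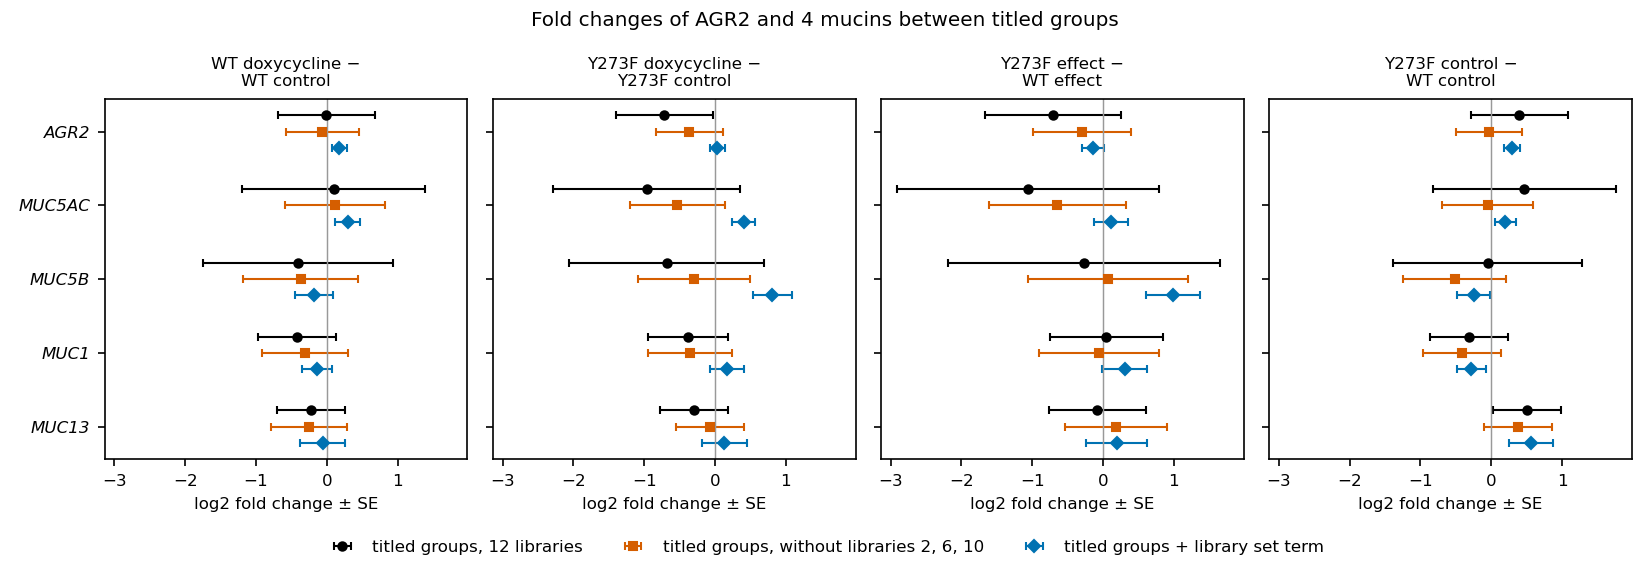
Log2 fold changes (horizontal axis, ± SE) of AGR2 and the 4 tested mucins in the 4 titled comparisons, from the fit of all 12 libraries (circles), without libraries 2, 6 and 10 (squares) and with a term for the library set (diamonds). In the Y273F line the 5 diamonds lie above 0 while the circles lie below.

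Other mucins were compared from a list of 17 genes. Of these, 5 were tested, 7 had no counts in any library, and the remaining 5 were at most 0.967 CPM. None of the 5 passed in any comparison, and their median log2 fold change was -0.05 in the Y273F line and -0.15 in the WT line, beside 0.01 and -0.00 over all genes. The 3 most abundant were CD164, MUC3A and MCAM. MUC3A, a membrane mucin of the intestinal brush border, ran against MUC5AC, at 23.2, 1.73 and 0.964 CPM in Y273F doxycycline, against 1.24, 1.64 and 1.06 CPM in Y273F control, and at 0.570, 1.23 and 19.3 CPM in WT doxycycline, against 2.46, 28.8 and 0.664 CPM in WT control. Libraries 2, 6 and 10 thus held 19.3 to 28.8 CPM, against 0.570 to 2.46 CPM in the other 9. Libraries 2, 6 and 10 were also highest for MCAM, an adhesion molecule also called MUC18, at 12.0 to 23.1 CPM against 0.784 to 8.18 CPM. For MUC12 they were only just highest, at 1.76 to 2.68 CPM against 0.385 to 1.75 CPM, with as few as 5 counts. These libraries thus lay above the other 9 in 3 of the 5 tested genes, against 18.5% of all genes, and below in none, against 15.6%. Libraries 1, 5 and 9 lay above the rest in none of the 5, against 2.95%. CD164, a widely expressed sialomucin, was at 69.0 to 79.9 CPM in libraries 2, 6 and 10 against 73.1 to 101 CPM. The neighbour of MUC5AC on the other side, MUC2, the gel-forming mucin of the intestine, was at most 0.672 CPM, and TOLLIP, beyond MUC5B, was at 56.3 to 72.2 CPM in libraries 2, 6 and 10 and 47.4 to 60.3 CPM in the other 9. The genes MUC12, MUC2 and TOLLIP, and those named in the next paragraphs beyond the 3 most abundant of each list, were chosen after their values were seen.

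Among 23 products of goblet and club cells, 9 were tested and none passed in any comparison. Their median log2 fold change was -0.69 in the Y273F line and -0.27 in the WT line, beside 0.01 and -0.00 over all genes. The most abundant were CEACAM6, SLPI and CEACAM5. FCGBP, a protein that is bound into mucus together with the gel-forming mucins, was at 0.223 to 0.967 CPM in libraries 2, 6 and 10, against 2.85 to 23.4 CPM in the other 9. SLPI, a protease inhibitor of airway secretions, was at 1.06 to 1.93 CPM, against 9.49 to 27.5 CPM. LCN2 was at 0.892 to 3.17 CPM, against 6.70 to 18.1 CPM, so that 3 of the 9 lay lowest in 2/6/10, against 15.6% of all genes, and none highest, against 18.5%. In 5 of the 9, TFF1, FCGBP, ZG16B, CEACAM5 and CEACAM6, libraries 1, 5 and 9 lay above the rest, against 2.95% of all genes. The adhesion protein CEACAM5 was at 31.1 to 39.1 CPM in libraries 1, 5 and 9, against 0.285 to 9.68 CPM in the other 9. TFF1, a trefoil peptide secreted with mucins, was at 14.7 to 17.7 CPM, against 0.143 to 5.01 CPM. The 14 genes of the list that were not tested were at most 2.58 CPM, with CLCA1, SCGB3A1 and WFDC2 at 0 counts and SCGB1A1 at 1 count in all libraries together.

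Of 26 regulators of secretory epithelium, 25 were tested and none passed in any comparison, with a median log2 fold change of -0.01 in the Y273F line and -0.10 in the WT line. ELF3, FOXA2 and SMAD3 were the most abundant. In libraries 2, 6 and 10, 6 of the 25 lay below the other 9 libraries and 4 above, beside 15.6% and 18.5% of all genes. Those counts are near the background, and the genes named below for these libraries are examples only. Libraries 1, 5 and 9 lay above the rest in 7 of the 25, against 2.95% of all genes. SPDEF, a transcription factor that drives goblet cell differentiation, was at 7.14 to 12.7 CPM in libraries 2, 6 and 10, against 13.7 to 47.7 CPM in the other 9. FOXA3, a forkhead factor of goblet cells, was at 0.669 to 1.38 CPM, against 3.21 to 16.9 CPM, and FOXA2 at 106 to 115 CPM, against 194 to 234 CPM. On the other side EGFR, whose signalling induces MUC5AC in airway cells, was at 153 to 175 CPM in libraries 2, 6 and 10, against 46.2 to 79.8 CPM, and SMAD3, a transducer of TGF-beta signals, at 234 to 252 CPM, against 123 to 185 CPM.

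Of 27 genes of O-glycan synthesis, 20 were tested, none passed, and the median log2 fold change was 0.07 in the Y273F line and -0.00 in the WT line. In 10 of the 20, libraries 2, 6 and 10 lay above the other 9, against 18.5% of all genes, and in 4 below, against 15.6%. The 3 most abundant, GCNT3, GALNT1 and GALNT10, were among the 10. In 3 of the 20, libraries 1, 5 and 9 lay above the rest, against 2.95% of all genes. GALNT1, which starts O-linked chains by adding the first sugar, was at 233 to 264 CPM in libraries 2, 6 and 10, against 91.1 to 171 CPM in the other 9, and GCNT3, a branching enzyme of mucin chains, at 236 to 255 CPM, against 138 to 168 CPM. ST6GALNAC1, which caps the first sugar with sialic acid to form the sialyl-Tn antigen, was at 0.223 to 2.07 CPM, against 2.28 to 23.7 CPM. GALNT11, another enzyme of the first step, was at 14.1 to 14.8 CPM, against 19.1 to 28.9 CPM. Most tested GALNT genes lay the other way. GALNT1, GALNT2, GALNT5, GALNT6, GALNT10, GALNT12, GALNT14 and GALNT18 were all above the other 9 in libraries 2, 6 and 10. Only GALNT11 was below, and GALNT7 overlapped.

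**Figure D4:**
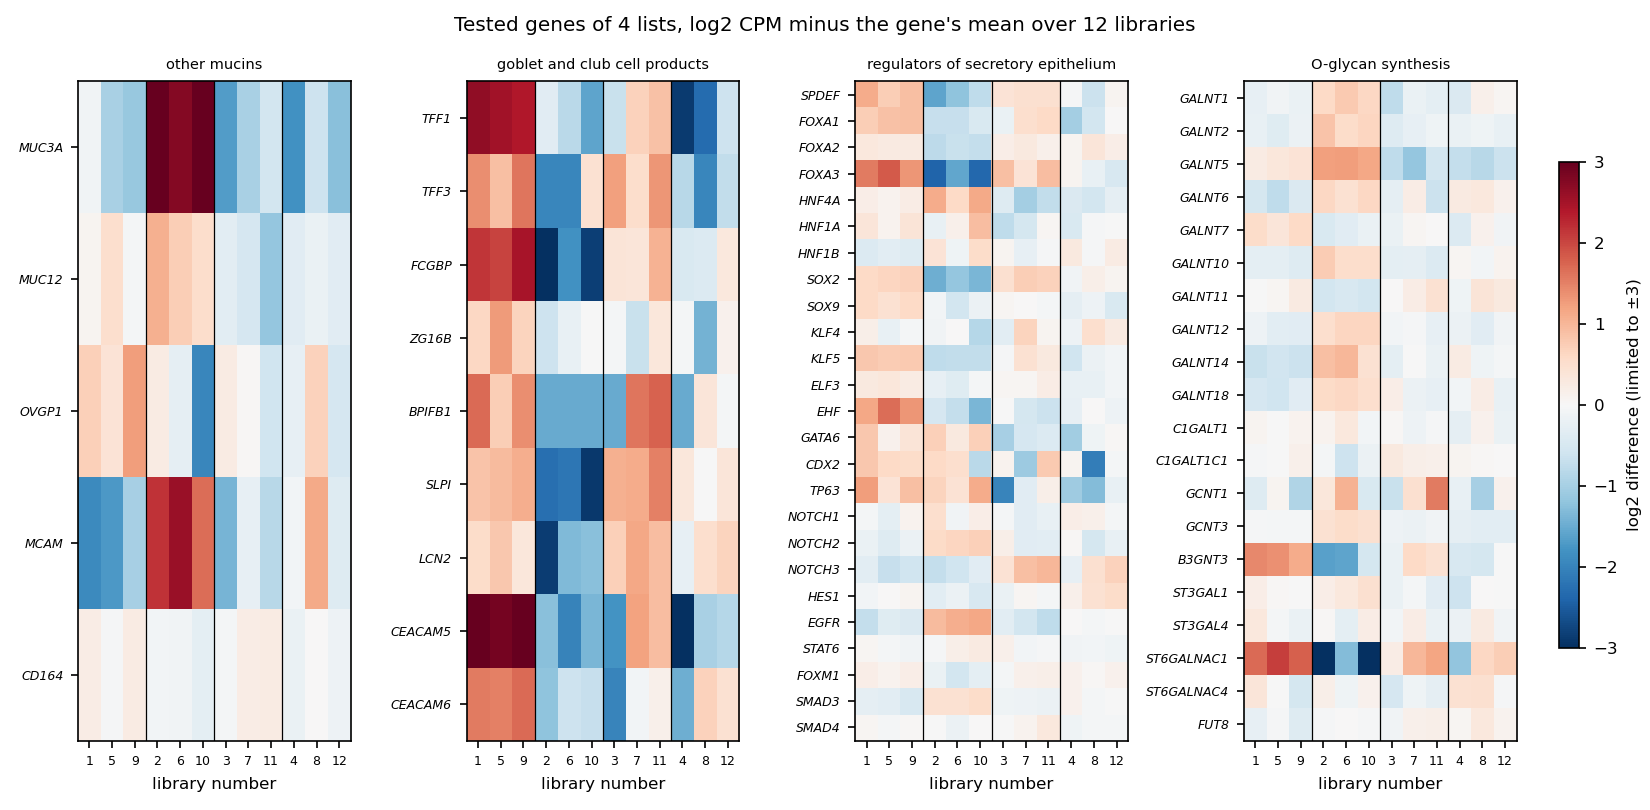
Tested genes of 4 lists (vertical) in the 12 libraries ordered by library set (horizontal), coloured by the log2 CPM after each gene's mean was subtracted, limited to 3 either way. In libraries 2, 6 and 10 FCGBP, SLPI, FOXA3 and ST6GALNAC1 are blue while MUC3A, MCAM, EGFR and several GALNT genes are red, and in libraries 1, 5 and 9 TFF1, FCGBP, CEACAM5 and CEACAM6 are red.

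Of 17 AGR2-related genes and genes for the folding of secreted proteins in the endoplasmic reticulum, 15 were tested and none passed, with a median log2 fold change of -0.18 in the Y273F line and -0.08 in the WT line. The most abundant were HSP90B1, HSPA5 and P4HB. HSPA5, the main chaperone of this compartment, was at 563 to 653 CPM in libraries 2, 6 and 10, against 634 to 794 CPM in the other 9. XBP1, the transcription factor of the secretory arm of the unfolded protein response, was at 59.8 to 65.0 CPM, against 145 to 369 CPM, and was 1 of 4 of the 15 that lay lowest in 2/6/10, against 15.6% of all genes. Libraries 2, 6 and 10 lay above the other 9 in 1 of the 15, against 18.5%, and libraries 1, 5 and 9 above the rest in 3, against 2.95%. AGR3, the paralog next to AGR2 on chromosome 7, was at most 2.13 CPM. Of 19 genes for granule secretion and mucin shedding, 17 were tested and none passed, with a median log2 fold change of 0.03 in the Y273F line and 0.02 in the WT line, and in libraries 2, 6 and 10, 3 lay below the other 9, near the 15.6% of all genes, and 6 above, against 18.5%. The most abundant were MARCKS, ADAM17 and ADAM10. In 2 of the 17, libraries 1, 5 and 9 lay above the rest, against 2.95% of all genes. MARCKS, a substrate of protein kinase C that is needed for mucin granule release, was at 310 to 350 CPM in libraries 2, 6 and 10, against 354 to 491 CPM, and RAB3B, a vesicle GTPase, at 129 to 151 CPM, against 22.9 to 60.5 CPM.

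Markers of other cell types were read beside these genes. The 8 fibroblast markers summed to 160 to 220 CPM in libraries 2, 6 and 10, against 17.7 to 38.6 CPM in the other 9. Of the 8, 3 were tested, and all 3 lay above the other 9 in libraries 2, 6 and 10, against 18.5% of all genes. COL1A1 was at 135 to 195 CPM, against 13.1 to 30.2 CPM, LUM at 11.3 to 13.6 CPM, against 0 to 1.54 CPM, and THY1 at 7.04 to 13.1 CPM, against 1.02 to 6.98 CPM. The other 5 were at or near 0 in all libraries, among them COL1A2 at most 0.352 CPM, COL3A1 at most 0.982 CPM and DCN at 1 count in all 12. Of the 9 alveolar type II markers, ABCA3 was at 14.7 to 21.2 CPM, while SFTPB and SLC34A2 had 0 counts, the other 6 were at most 1.46 CPM, and the sum was 19.2 to 22.2 CPM in libraries 2, 6 and 10 and 16.2 to 23.0 CPM in the other 9. The 3 endothelial markers summed to at most 0.578 CPM in any library, and of the 4 leukocyte markers only CD14 was above 0.223 CPM. The 7 tested genes of A549 identity summed to 10520 to 13535 CPM in libraries 2, 6 and 10, against 5854 to 8611 CPM in the other 9, with 3 of the 7 above and 2 below, beside 18.5% and 15.6% of all genes. In 3 of the 7, EPCAM, AKR1B10 and AKR1C1, libraries 1, 5 and 9 lay above the rest, against 2.95% of all genes. Levels highest in 1/5/9 were thus not particular to secretory genes. KRT18 was at 6125 to 8473 CPM in libraries 2, 6 and 10, against 2262 to 3362 CPM in the other 9, and CDH1 at 24.3 to 30.3 CPM, against 43.4 to 65.7 CPM. The part of any of these in the levels of the mucins and AGR2 was not tested.

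The genes with the most similar profile over the 12 libraries were found by the root mean square difference of centred log2 CPM, among genes with a mean of at least 5 CPM. For MUC5AC they were C9orf152 at 0.26, MUC5B at 0.59 and CP, the copper carrier ceruloplasmin, at 0.85. For MUC5B they were C9orf152 at 0.54, CP at 0.59 and MUC5AC at 0.59. C9orf152 was at 0 to 0.704 CPM in libraries 2, 6 and 10, 25.7 to 28.8 CPM in 1/5/9, 9.08 to 13.3 CPM in 3/7/11 and 8.27 to 11.6 CPM in 4/8/12. For AGR2 the nearest were GPX2, a glutathione peroxidase, at 0.17, FST, the activin-binding follistatin, at 0.19 and MTUS1 at 0.20. GPX2 was at 127 to 144 CPM in libraries 2, 6 and 10, 668 to 782 CPM in 1/5/9, 289 to 483 CPM in 3/7/11 and 219 to 300 CPM in 4/8/12. For MUC1 they were PGK1, an enzyme of glycolysis, at 0.38, BNIP3P1 at 0.38 and GASK1B at 0.38, and for MUC13 TBX3, a T-box transcription factor, at 0.28, LY6E at 0.30 and ENSG00000279483 at 0.32. PGK1 shared with MUC1 the lowest level in set 4/8/12, at 453 to 503 CPM, followed by 553 to 629 CPM in 2/6/10, 811 to 929 CPM in 3/7/11 and 854 to 906 CPM in 1/5/9. Nothing follows from such likeness about a shared function or control.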

How the data were processed

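RNA of 12 libraries was sequenced as 3' tags (QuantSeq FWD V2, per the labels' protocols), a stranded method that reads from near the poly(A) end. STAR and GRCh38.p14 are named in the submitters' processing notes, and the STAR version, the annotation and the treatment of molecular identifiers were not stated. The counts deposited by the authors are whole reads per gene, in a file for each library, unstranded and by strand, and in a merged table. Those of the transcript strand served here. Between 35.5% and 43.2% of a library's reads had no gene and stayed out. At the 7 genes the opposite strand held at most 5 counts in all libraries together. Per the series text the populations were grown and lysed in parallel, and p-values measure only the spread between these libraries.

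After TMM scaling and filterByExpr at a minimum count of 10, the quasi-likelihood test of edgeR 4.0.16 (R 4.3.3) was run on all 12 libraries, with 1 mean per titled group, Benjamini-Hochberg adjustment over 13838 genes and a threshold of 0.05. Log2 CPM have a prior count of 2. Alternatives were DESeq2 1.42.0 size factors, the DESeq2 Wald test, no filter, a replicate block, unstranded counts, the merged table, a term for the library set, leaving out each library and, added after the data were seen, leaving out libraries 2, 6 and 10 together. The procedure was tested on simulated data with 200 changed genes. Between titled groups it recovered 81% to 85% of 4-fold changes but only 21% to 39% of 2-fold changes. For the difference of the effects it recovered 68% and 4%. Its calls included 6 to 10 unchanged genes. The floor of a library is 3 counts, and floors and exact Poisson 95% intervals cover counting error only, since amplification copies are not independent molecules.

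Members, library sets and 11 gene lists with 161 genes were chosen with earlier results of these data known. Named genes are the 7 members, DYRK1B, genes of a list past the threshold and otherwise its 3 with the highest mean CPM, and for each member with an SD of log2 CPM of at least 0.5 and a mean of at least 1 CPM the 3 nearest genes with a mean of at least 5 CPM. Loci, symbols and promoters are RefSeq on GRCh38.p14. One listed gene is not reported here.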

Additional observations from a re-analysis of the deposited data

How the results depend on the processing

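Of 400 log2 fold changes of the 5 tested genes under alternatives, 350 kept their direction, 50 turned, and 0 passed the threshold. With a term for the library set AGR2 turned to 0.18 in the WT line, AGR2, MUC5AC, MUC5B, MUC1 and MUC13 to 0.034, 0.40, 0.81, 0.17 and 0.13 in the Y273F line, and MUC5AC, MUC5B and MUC13 to 0.11, 0.99 and 0.19 in the difference of the effects. That fit called 1 gene in the Y273F line, ENSG00000197149, which is no mucin. Without libraries 2, 6 and 10, MUC5B, MUC1 and MUC13 turned to 0.070, -0.056 and 0.18 in the difference, and AGR2 and MUC5AC to -0.030 and -0.052 between the control groups. The cause was not tested. Leaving out 1 library at a time gave 0 to 1 called genes in the Y273F line, in the difference and between the control groups, 0 in the WT line, and these ranges: in the WT line -0.84 to 0.82 for AGR2, -1.37 to 1.33 for MUC5AC, -2.47 to 1.00 for MUC5B, -1.29 to -0.10 for MUC1 and -0.69 to 0.47 for MUC13; in the Y273F line -1.07 to -0.26 for AGR2, -1.62 to -0.024 for MUC5AC, -1.68 to 0.22 for MUC5B, -0.86 to 0.024 for MUC1 and -0.64 to -0.044 for MUC13; in the difference -1.53 to 0.13 for AGR2, -2.29 to 0.40 for MUC5AC, -1.68 to 1.79 for MUC5B, -0.44 to 0.91 for MUC1 and -0.77 to 0.39 for MUC13; between the control groups -0.061 to 1.22 for AGR2, -0.48 to 1.69 for MUC5AC, -0.96 to 1.35 for MUC5B, -0.71 to 0.018 for MUC1 and 0.18 to 1.20 for MUC13. In the Y273F line the values of AGR2, MUC5AC, MUC5B and MUC1 nearest to 0 or above it were those without Y273F control 3, and the lowest of all 5 genes those without Y273F doxycycline 2. The single called genes were SLX1B without Y273F control 2, and RPL32P18 and FKBP1C without Y273F doxycycline 2 and 3. Replicate numbers did not pair the libraries: the correlation of the deviations of same-numbered libraries ran from -0.64 to 0.24. Only replicate 2, in the comparison of the control groups, correlated best with its own number. The replicate block called 0 genes and turned MUC5AC in the WT line to -0.19. MUC16 and MUC20 lie at the limit of depth.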
